A study of Rattus norvegicus with 12 samples.

Results

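The microRNA composition of liver from vehicle-treated rats is described here from the 3 Control libraries of a series of 12 small RNA libraries. All 3 libraries labelled Control were used, and no library of a drug-treated group entered any value. The series asked how liver microRNA levels differ after caffeine, dextromethorphan or both. The Control rats were male Sprague-Dawley rats (Jcl:SD), an outbred laboratory stock, and were 7 weeks old when dosing began. They received sterile distilled water by mouth on 5 consecutive days, and tissue was taken 1 h after the final dose. Each group held 5 rats. Which rat gave which library is not stated, so an SD given here is the spread between 3 libraries of whole liver tissue. The column headers of the data number the Control libraries 1, 3 and 4, and these numbers are used as names.

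A microRNA is a short single-stranded RNA that guides Argonaute proteins to messenger RNAs and lowers their translation and stability. It is cut from one arm of a hairpin precursor, first by Drosha in the nucleus and then by Dicer in the cytoplasm, and bases 2 to 8 of the mature strand, the seed, do most of the pairing with targets. MicroRNAs with the same seed form a family, and neighbouring hairpins are often cut from a single transcript. In liver, microRNAs of hepatocytes act on lipid and cholesterol metabolism, growth and differentiation, while others come from the blood cells, stellate cells, bile ducts and vessels of the organ.

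The data listed 444 features on genome build rn7, of which 432 were microRNA genes and 12 were of other kinds. A value is given either as the percent of reads assigned to these features or as RPM, the reads of a gene when a library is scaled to 1000000 such reads. Reads of an annotated gene were not divided by its length, since a mature microRNA is cut from a stretch of nearly fixed length whatever length is annotated for its hairpin. Depth was 3207522 reads in library 1, 3418568 in library 3 and 3103016 in library 4. A single read was worth 0.293 to 0.322 RPM. A value of 0 allows a level of up to 0.878 to 0.967 RPM (3 reads), a limit that covers counting error only. A share is a share of the listed genes alone, and other microRNA genes, those of miR-215 and miR-29a among them, are not analysed here.

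Mature sequences of most of the 20 most abundant genes are printed first, because the composition is easiest to read as a short list of seeds. Those of Mir143 and Mir125b1 are left out. Rarer family members, such as miR-98, miR-15b and miR-195, are added. The printed sequences are those of RefSeq (GRCr8) for the arm usually taken as the main product, 5′ to 3′, with the seed in capitals. The data count reads per gene and do not say which arm they came from. RefSeq gave a mature sequence for 369 of the 432 microRNA genes, which held 93.7% of reads, and for all of the 20 most abundant.
miR-192-5p: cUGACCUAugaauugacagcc
miR-194-5p: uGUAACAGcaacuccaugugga
miR-101b-3p: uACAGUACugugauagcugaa
miR-101a-3p: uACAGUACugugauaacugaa
let-7f-5p: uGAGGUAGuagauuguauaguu
let-7a-5p: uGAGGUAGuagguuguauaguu
let-7c-5p: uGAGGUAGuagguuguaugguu
let-7b-5p: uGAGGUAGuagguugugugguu
let-7g-5p: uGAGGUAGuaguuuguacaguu
miR-98-5p: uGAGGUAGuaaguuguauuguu
miR-26b-5p: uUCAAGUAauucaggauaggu
miR-26a-5p: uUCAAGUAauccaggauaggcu
miR-21-5p: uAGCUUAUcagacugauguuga
miR-148a-3p: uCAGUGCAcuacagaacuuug
miR-152-3p: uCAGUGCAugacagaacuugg
miR-16-5p: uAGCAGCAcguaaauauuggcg
miR-195-5p: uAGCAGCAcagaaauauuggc
miR-15b-5p: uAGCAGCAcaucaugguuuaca
miR-30a-5p: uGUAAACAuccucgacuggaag
miR-27b-3p: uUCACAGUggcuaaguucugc
miR-142-3p: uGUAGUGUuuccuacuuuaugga
These 21 sequences hold 11 seeds. Some members of a seed differ by only 1 or 2 bases. Counted from 1 at the 5′ end, let-7f differs from let-7a by G12A, let-7c from let-7a by A19G, and let-7b from let-7c by A17G. miR-101b differs from miR-101a by A16G, and miR-26b from miR-26a by C11U and C21U. Members this close can be told apart only by reads that cover these positions.

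Most of the listed sequences begin with U, the base that Argonaute proteins bind most readily at the 5′ end. Among the 60 most abundant features, 44 were microRNA genes with a main arm set for their family and a RefSeq sequence for it, and 35 of these main arms begin with U. Those 35 held 78.2% of the reads of the 44 genes. Mir192, the most abundant of the listed genes, is an exception and begins with C. Of the 44 main arms, 23 are 22 bases long, and the range is 21 to 24.

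Few genes held most reads. Mir192 took 15.7% ± 0.635 of reads (SD, n = 3) and led every library. Only 7 features held 50% of reads in each library, and 36 to 37 features held 90%. The 10 most abundant features took 60.5% of reads in library 1, 58.4% in library 3 and 59.5% in library 4, a mean of 59.5% ± 1.06 (SD, n = 3), and the 20 most abundant took 76.9% ± 0.494 (SD, n = 3). The effective number of features, the inverse of the summed squared shares, was 17.4 in library 1, 18.8 in library 3 and 18.5 in library 4. Each library had 264 to 271 features above 0, so its reads were as concentrated as if they fell evenly on fewer than 20 of these.

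**Figure D1:**
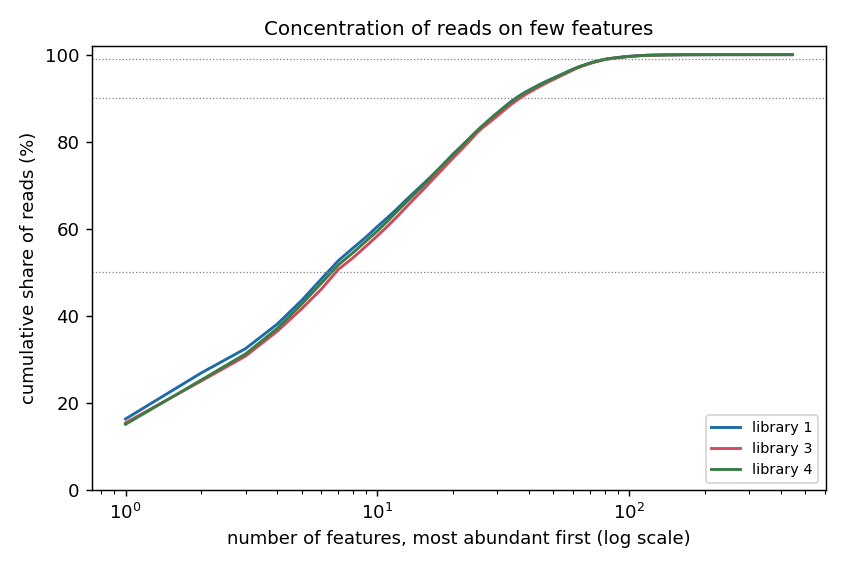
Cumulative share of reads (%) against the number of features, most abundant first, on a log scale, with 1 line for each Control library and dotted lines at 50, 90 and 99%. The 3 lines nearly coincide, and each crosses 50% at 7 features.

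Mir192 (ENSRNOG00000035530, chr1:203564946-203565055, plus strand) makes miR-192, a microRNA abundant in hepatocytes and in gut and kidney epithelium. It stood at 163644 RPM in library 1, 154664 in library 3 and 151380 in library 4. Mir101-2 (ENSRNOG00000035532, chr1:226860371-226860467), which makes miR-101b, followed with 105794, 96221 and 101825 RPM in libraries 1, 3 and 4, or 10.1% ± 0.481 of reads (SD, n = 3). miR-101 is known to act on the transcript of the histone methyltransferase EZH2. Both genes lie on chromosome 1, which held 29.2% ± 1.01 of all reads (SD, n = 3) on 48 listed features, and the lowest library of Mir192 lay far above the highest of Mir101-2.

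The next 5 genes formed a group of similar size. Mirlet7f2 (chrX:20980632-20980714), a let-7 gene of growth control and differentiation, had 55877, 56733 and 59975 RPM in libraries 1, 3 and 4. Mir26b (chr9:75976596-75976680), of a family that acts on growth and insulin signalling, had 55888, 57202 and 58165 RPM. These 2 genes could not be ordered: Mirlet7f2 was the higher in only 1 of the 3 libraries, and their ranges overlapped.

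Mir21 (chr10:71405257-71405348, minus strand), which rises in many injured and growing tissues, had 54319 RPM in library 1, 51397 in library 3 and 55629 in library 4, 5.38% ± 0.217 of reads (SD, n = 3). Mir148a (chr4:80333762-80333858, minus strand), a hepatocyte microRNA whose known targets include the transcript of the nuclear receptor PXR, had 49891, 45697 and 48669 RPM. Mir16 (chr2:153245349-153245443), which acts on cell cycle transcripts, had 41624, 44985 and 41765 RPM. Mir26b, Mir21, Mir148a and Mir16 kept this order in all 3 libraries, and no 2 neighbours among them overlapped in range.

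The remaining genes of the leading 20 ran from 27151 RPM on average for Mir101a to 13624 for Mir142. In order they were Mir101a, Mirlet7a1, Mir194-2, Mir30a, Mir143, Mir27b, Mirlet7c2, Mirlet7c1, Mirlet7b, Mir125b1, Mirlet7g, Mir194-1 and Mir142. Known roles among them are these: let-7 genes of differentiation, miR-194 made beside miR-192, miR-30 of epithelial cells, miR-143 of smooth muscle and stellate cells, miR-27 of lipid metabolism and miR-142 of blood cells. The same 20 features led in all 3 libraries, and 9 of the 10 leading features were shared by all 3. Down to rank 21, 13 of 20 neighbouring pairs kept their order in every library, and 8 pairs had overlapping ranges. The pairs without a fixed order were Mirlet7f2 and Mir26b, Mir101a and Mirlet7a1, Mir194-2 and Mir30a, Mir143 and Mir27b, Mirlet7c1 and Mirlet7b, Mirlet7b and Mir125b1, and Mir194-1 and Mir142.

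**Figure D2:**
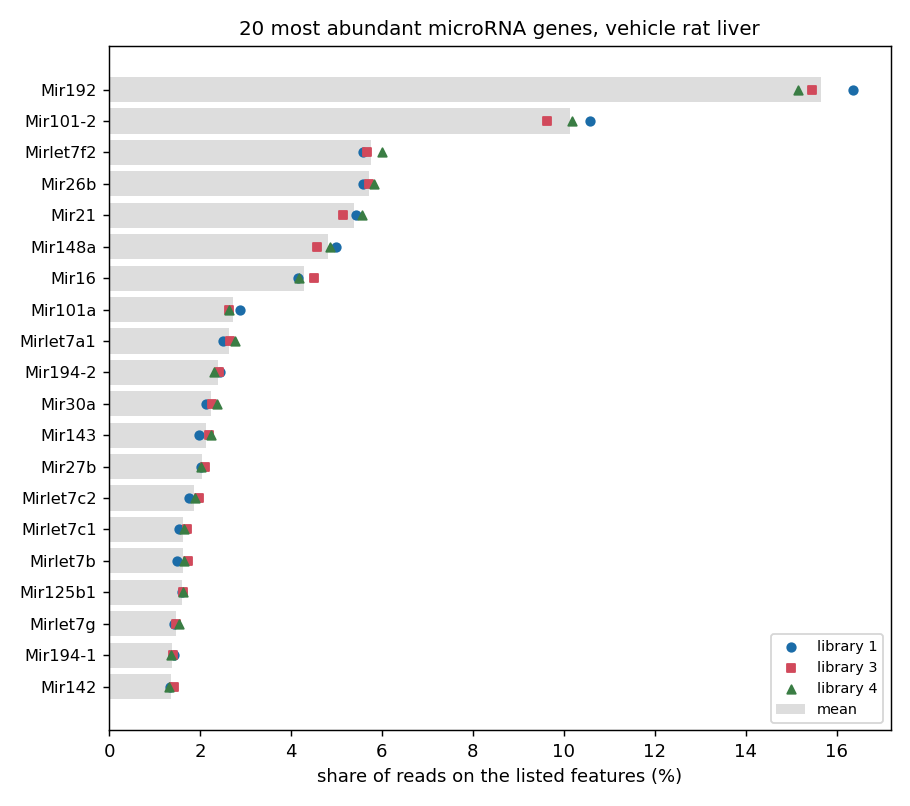
Share of reads (%) of the 20 most abundant features, with 1 symbol for each Control library and a bar from 0 to the mean. Mir192 and Mir101-2 stand clear of the rest at 15.7 and 10.1%, and 8 neighbouring pairs further down overlap in range.

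At the other end of the scale, 236 of the 444 features were above 0 in all 3 libraries, 28 in 2, 42 in 1 and 138 in none. The 70 features seen in only 1 or 2 libraries never averaged above 0.830 RPM, so they lay under the limit that 0 reads allow. The 138 features at 0 included 132 microRNA genes. Between these ends, 25 features at or above 10000 RPM held 82.4% of reads, 47 from 1000 to 10000 RPM held 15.8%, 44 from 100 to 1000 RPM held 1.59%, and all rarer features held the rest. The 12 features of other kinds held little: Snora58, annotated as a small nucleolar RNA, had 216 RPM ± 0.562 (SD, n = 3), the only one above 100 RPM. RefSeq places the hairpin of miR-3068 in Snora58, that of miR-1843a in Scarna3 (57.6 RPM) and that of miR-664 in Snora36c (9.27 RPM).

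Cell type lists of microRNAs were set beside the label of liver. miR-122 is not analysed here and is in none of them, and the lists were chosen with earlier results of these data known. The 9 listed hepatocyte microRNA genes were all above 0 in every library and held 38.2% ± 1.43 of reads (SD, n = 3), from 37.2% in library 3 to 39.8% in library 1. They were Mir192, Mir101-2, Mir148a, Mir101a, Mir194-2, Mir194-1, Mir802, Mir22 and Mir378b, and 8 of them exceeded 100 RPM. Mir101-2 and Mir101a together held 12.8% ± 0.605 of reads (SD, n = 3). The sum thus depends on which genes are listed and does not measure the part of hepatocytes. Mir802, found in liver, kidney and pancreas, had 7727 RPM ± 538 (SD, n = 3), Mir22, a broadly expressed gene that is abundant in liver, 3383 RPM ± 38.8 (SD, n = 3), and Mir378b 39.0 RPM ± 5.72 (SD, n = 3). Mir21, the other marker set for this tissue, is made in most cell types, and so its 5.38% does not mark hepatocytes.

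The lists for other liver cells held smaller shares, but they are shorter, so the sums are not compared as amounts of cells. The 6 leukocyte and macrophage genes, led by Mir142 and Mir146a, summed to 26340 to 29862 RPM, 2.76% ± 0.197 of reads (SD, n = 3). Mir223 of neutrophils had 1807, 1924 and 1744 RPM in libraries 1, 3 and 4, while Mir155 of activated immune cells had 58.3, 54.1 and 58.7 RPM. The 4 stellate, smooth muscle and mesenchymal genes summed to 23999 to 27052 RPM, 2.60% ± 0.172 of reads (SD, n = 3). Mir143 made up most of that sum, with Mir199a2 at 2013, 2914 and 2314 RPM and Mir214 at 5.30, 10.5 and 6.12 RPM. In tissue, fewer cells of a type and less RNA per cell cannot be told apart.

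The remaining lists were rarer still. The 3 erythroid genes, Mir144, Mir451a and rno-mir-486, summed to 1008 to 1215 RPM. The 3 epithelial genes of bile ducts, Mir200b, Mir429 and Mir141, summed to 786 to 1282 RPM. Of the 6 striated muscle genes, Mir1b and Mir499a were above 100 RPM, and the sum was 345 to 656 RPM. The 7 neuronal genes summed to 13.4 to 21.9 RPM, and the 3 Mir124 genes, which define neurons, were at 0 in 2 libraries and at 0.103 RPM each in library 1. The 4 pancreas genes summed to 29.9 to 40.3 RPM, nearly all of it from Mir375, with the acinar gene Mir216b at 0 in all 3 libraries.

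Endothelium could not be checked. The gene listed as Mir126a had 5.16 RPM ± 0.579 (SD, n = 3), but RefSeq assigns to that symbol and strand the mature strand miR-126b, and assigns the endothelial miR-126a to the gene on the opposite strand, which is not analysed here. This is 1 case of a wider feature of the data. RefSeq has 43 pairs of microRNA hairpins that overlap on opposite strands. For 42 of them exactly 1 member is among the 444 features, and for none are both. The listed member was at 0 in 28 of the 42 and under 10 RPM in 37. Only Mir130a (3393 RPM), Mirlet7d (2758 RPM), Mir29b1 (1120 RPM) and Mir3545 (884 RPM) exceeded 100 RPM, and the 42 genes together held 0.822% of reads.

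A few listed genes differed in strand from RefSeq. Of 363 genes compared with RefSeq hairpins, 357 had the same strand and 6 the opposite one. Of those 6, Mir30e, Mir210, Mir218-1 and Mirlet7f-1os were at 0 in all 3 libraries, Mir219-2 had 1.12 RPM on average and Mir3553 48.6 RPM. No source used here says whether reads were assigned by strand, and the part of strand in these 6 values was not tested.

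Grouped into families by gene name, the composition was led on average by let-7. Genes of other names that share a seed, such as Mir351 with Mir125a and Mir384 with Mir30a, were not counted in those families. Of 31 families with 91 listed genes, which together held 91.0% ± 0.0892 of reads (SD, n = 3), the 6 largest held 64.5% ± 0.367 and the 10 largest 81.2% ± 0.412. The let-7 and miR-98 family, 9 genes all above 0, held 15.7% of reads in library 1, 16.7% in library 3 and 17.0% in library 4. miR-192, with 1 listed gene, held 16.4%, 15.5% and 15.1% in the same libraries. The families changed places between libraries, with miR-192 first in library 1 and let-7 first in libraries 3 and 4, so their order was not fixed within the spread.

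Inside the let-7 family no gene held most of the reads. Mirlet7f2 took 34.9% ± 0.913 of the family (SD, n = 3), Mirlet7a1 16.04% ± 0.252, Mirlet7c2 11.3% ± 0.353, Mirlet7c1 9.92% ± 0.272, Mirlet7b 9.85% ± 0.494, Mirlet7g 8.99% ± 0.175 and Mirlet7i 7.08% ± 0.0700. Mirlet7d took 1.67% and Mir98 0.174%. All 9 genes carry the seed GAGGUAG, and the most and least abundant, Mirlet7f2 and Mir98, lie side by side on chromosome X. RefSeq has a further copy of let-7a that is not analysed here, so the share of let-7a may be incomplete. It also gives let-7f-5p to Mirlet7f-1os, which is listed on the strand opposite to RefSeq and was at 0. The share of Mirlet7f2 is therefore uncertain as that of a single gene.

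Other leading families rested on 1 main gene each. Mir101-2 held 78.9% of the miR-101 family, which took 12.8% ± 0.605 of reads (SD, n = 3). Mir26b held 72.4% of the miR-26 family, with 7.89% ± 0.199 of reads; Mir26a-2 and Mir26a added 11301 and 10490 RPM. Mir148a held 83.2% of the miR-148 and miR-152 family, with 5.78% ± 0.244 of reads, beside Mir152 at 7673 and Mir148b at 2044 RPM. As the printed sequences show, miR-101a, miR-26a and miR-152 share the seed and most of the later bases with the leader of their family.

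The family of miR-15 and miR-16, known to restrain cell cycle entry, held 5.91% ± 0.272 of reads (SD, n = 3). Mir16 supplied 72.4% of it and Mir322-2 12.0%, while Mir497, Mir15a, Mir195 and Mir15b gave 5.15%, 4.04%, 3.90% and 2.47%. The miR-30 family was spread more evenly over 5 genes above 0. Mir30a held 43.4% ± 0.866 of that family, Mir30d 22.6%, Mir30b 17.6%, Mir30c2 8.31% and Mir30c1 8.09%, with Mir30e at 0 on the strand discussed above. The family as a whole took 5.18% ± 0.177 of reads (SD, n = 3), close to miR-21 with its 1 gene.

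**Figure D3:**
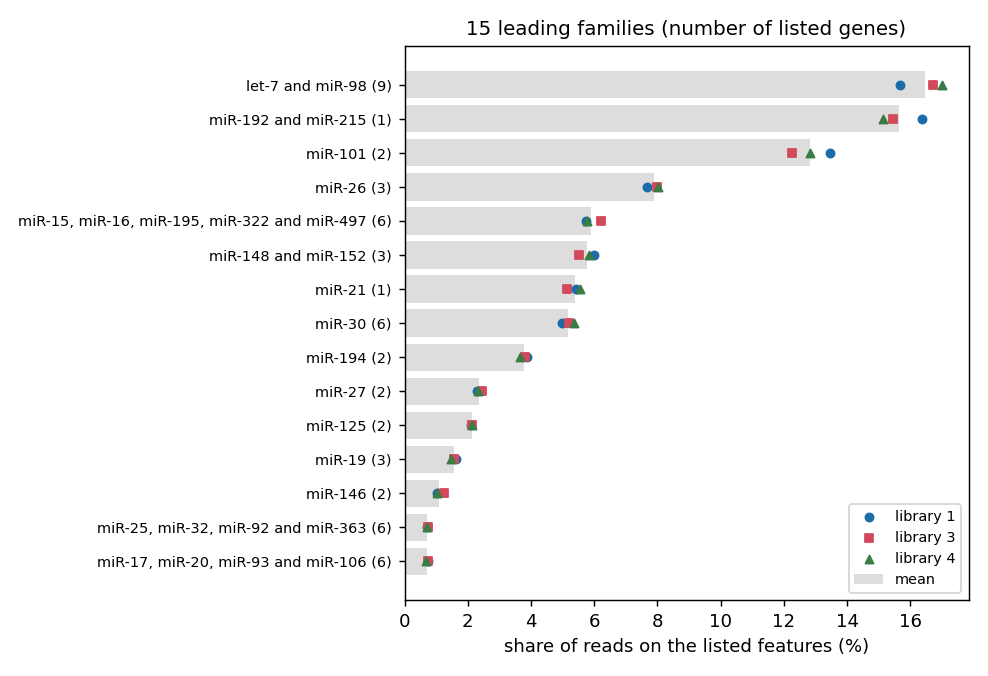
Share of reads (%) of the 15 leading families, with the number of listed genes in brackets, 1 symbol for each Control library and a bar from 0 to the mean. The let-7 and miR-192 symbols overlap at 15.1 to 17.0%, and the 11 leading families, down to miR-125 at 2.12%, exceed 2% in all 3 libraries.

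Abundant copies of the same mature microRNA moved together from library to library. Of the listed genes with a RefSeq mature sequence, 9 pairs with both copies above 0 carry an identical main arm. Mir26a-2, Mir103a1 and Mir29b-3 had no mature sequence there by symbol. Whether they are copies of Mir26a, Mir103a2 and Mir29b1 was therefore not checked, and the 9 pairs may be incomplete. In 6 of them the lower copy had at least 100 RPM. Copies at 0 are outside these pairs: RefSeq gives let-7f-5p to Mirlet7f-1os and miR-218a-5p to Mir218-1, both at 0 in all 3 libraries. Mirlet7c2 and Mirlet7c1 had ratios of 1.14, 1.15 and 1.14 in libraries 1, 3 and 4, Mir19b2 and Mir19b1 1.02, 1.02 and 1.02, and Mir194-2 and Mir194-1 1.71, 1.74 and 1.71. Over the 6 pairs the SD of the log2 ratio was 0.0025 to 0.012, while the SD of log2 RPM of the single genes was 0.037 to 0.085. Reads of such copies cannot be told apart by the mature sequence, so each pair is 1 signal and the ratio is uncertain as a statement about the genes. The least equal of the 9 pairs was on the miR-92a arm, where Mir92a1 was 66.2 ± 5.07 times as high as Mir92a2 (SD, n = 3), 765 against 11.6 RPM.

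By position, 49.7% of reads in library 1, 50.7% in library 3 and 49.6% in library 4 came from clusters, defined as listed microRNA genes on 1 chromosome and strand with starts at most 10 kb apart. There were 50 clusters with 167 genes, 34 of them pairs, and the 6 largest shares summed to 37.0% ± 0.257. The leading cluster was Mir194-2 and Mir192 (chr1:203564761-203565055, plus strand), 295 bases in span, with 18.0% ± 0.690 of reads. Next came Mirlet7f2 with Mir98 on chromosome X (5.78%), Mir15b with Mir16 on chromosome 2 (4.42%), Mirlet7c2 with Mirlet7b on chromosome 7 (3.49%), Mirlet7a1 with Mirlet7d on chromosome 17 (2.92%) and Mir145 with Mir143 on chromosome 18 (2.36%).

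Neighbours in a cluster differed widely in level. Mir192 was 6.72, 6.39 and 6.55 times as high as Mir194-2 in libraries 1, 3 and 4. Mirlet7f2 was 200 ± 8.01 times as high as Mir98 (SD, n = 3), Mir16 29.4 ± 1.502 times as high as Mir15b, Mir143 9.67 ± 0.716 times as high as Mir145, and Mirlet7a1 9.59 ± 0.412 times as high as Mirlet7d. Mirlet7c2 and Mirlet7b were nearly equal, at 1.15 ± 0.0232. The 6 leading clusters thus ranged from near equality to a difference of 200-fold. RefSeq gives let-7f-5p also to Mirlet7f-1os, and Mir194-2 and Mirlet7c2 share a main arm with another listed gene. Ratios with these genes are uncertain as statements about single genes.

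Between libraries, ratios within clusters varied about as much as single genes. Over 23 such ratios the SD of the log2 ratio had a median of 0.073. The median SD of log2(RPM + 1) was 0.0705 for single features of at least 100 RPM. A ratio holds the spread of 2 genes, some ratios share a gene, and ratios of unrelated genes were not computed. These values therefore do not show whether neighbours vary together. Of the 23 ratios, 10 varied less than both of their genes, while 4 varied more than both. Mir200b and Mir429, a pair of epithelial genes on chromosome 5, were among those 10. Mir200b had 370, 736 and 472 RPM and Mir429 212, 363 and 245 RPM in libraries 1, 3 and 4, both highest in library 3 and lowest in library 1. Their ratio was 1.75, 2.02 and 1.93, with an SD of 0.11 on the log2 scale against 0.50 and 0.40 for the single genes.

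The miR-17-92 cluster on chromosome 15, whose 6 genes are known as growth-promoting, held 1.04% ± 0.0483 of reads (SD, n = 3). Its members ran from Mir19b1 at 6909 RPM to Mir18a at 16.7 RPM, and Mir17 had 111 RPM. Mir19b1 and Mir17 share a main arm with Mir19b2 and Mir106a of another cluster, so their levels are uncertain as those of single genes. At the low end, 6 clusters with 17 genes were at 0 throughout. Chromosome 6 held 5 clusters with 43 genes, all in the imprinted Dlk1-Dio3 region, which is active mainly in embryo, placenta and brain. Its largest cluster, 24 genes led by Mir379 (12.7 RPM ± 5.78; SD, n = 3), took 0.00434% of reads, although the region is among the densest in microRNA genes.

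**Figure D4:**
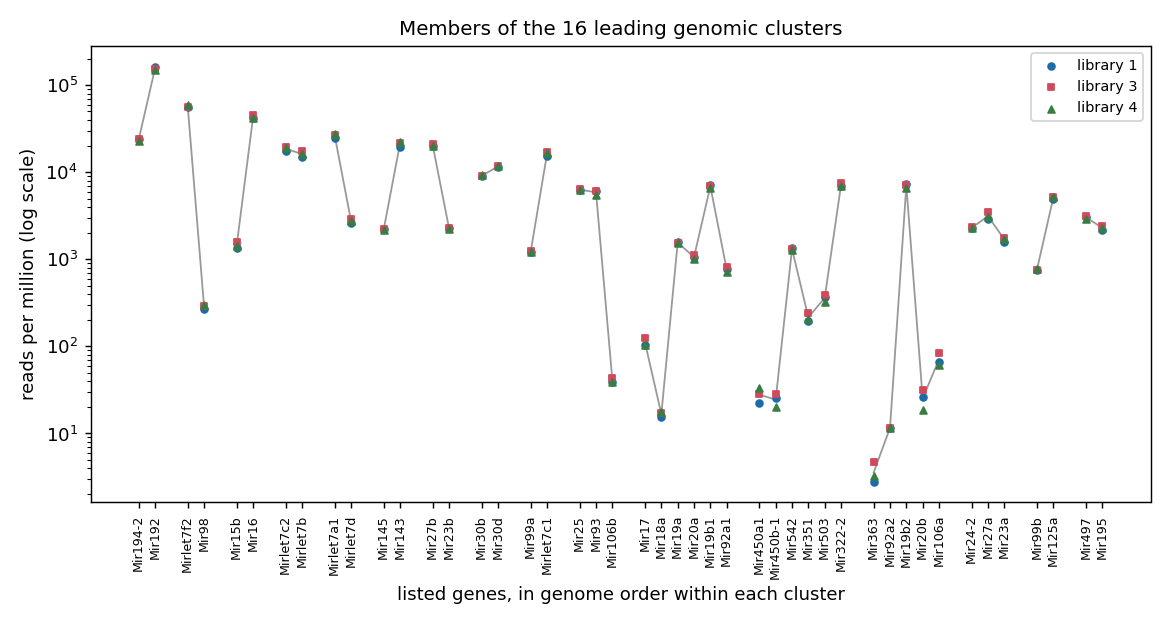
RPM (log scale) of the listed genes of the 16 leading clusters in genome order, with 1 symbol for each Control library and a line through the means. Genes of a cluster differ by up to 1972-fold (Mir19b2 over Mir363) while the 3 symbols of a gene mostly coincide. Mir19b2 shares its main arm with Mir19b1 of another cluster, so that difference is uncertain as a statement about the genes.

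Of the 20 most abundant genes, 7 lie within a protein-coding gene on the same strand and 7 have no host on that strand. By RefSeq gene positions (GRCr8), microRNA genes within a protein-coding gene on the same strand held 36.9% ± 0.189 of reads (SD, n = 3), and 58 within another RNA gene on the same strand held 12.4% ± 0.296. For 43 genes with 2.42% of reads the strand of the surrounding gene was not in the tables. A further 137 had no host on the same strand and held 39.9% ± 0.648. Some genes, Mirlet7b and Mir30d among them, were not placed in any of these classes. Among the leading genes, Mir101-2 lies in Rcl1, Mirlet7f2 in the ubiquitin ligase gene Huwe1, Mir16 in the condensin gene Smc4, and Mir27b in the aminopeptidase gene Aopep. Mir26b lies in Ctdsp1 and Mir26a in Ctdspl, a pair of related phosphatase genes. Mir192, Mir21 and Mir148a had no host on the same strand by these tables, which hold gene spans and not exons, so exonic and intronic positions were not separated.

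The 3 libraries were alike but not within counting error. Over 116 features averaging at least 100 RPM, the median coefficient of variation (CV, SD divided by mean) was 4.92%, with 58 features under 5%, 99 under 10% and 6 over 20%. It exceeded the CV that counting alone would give in 108 of 116 features, and its median was 3.60 times that value. For the 25 features at or above 10000 RPM the median CV was 4.49%, 14.3 times the counting value, so counting made up little of their spread. Counts of a pair of libraries differed with a chi-square per degree of freedom of 35.1 to 61.2, with reads taken as independent. Library pairs correlated with r = 0.996, 0.996 and 0.998 for libraries 1 and 3, 1 and 4, and 3 and 4, on log2 RPM over 163 features averaging at least 10 RPM, a description across features that share a library. Between 1 and 4 of these features differed by more than 2-fold in a pair.

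The genes that varied most were rare. Mir1b, a muscle microRNA, had 492 RPM in library 1, 186 in library 3 and 228 in library 4, a CV of 54.9%. Mir133a-2, another muscle gene, was also highest in library 1, at 18.1 RPM against 5.70 and 6.07. Another 2 members of the muscle list did not follow: Mir499a had 142, 149 and 162 RPM and Mir206 2.81, 4.10 and 3.87 RPM in libraries 1, 3 and 4, both lowest in library 1. The sum of the list was highest in library 1 and was carried by Mir1b, and the part of muscle tissue in it was not tested.

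Mir182, of sensory and epithelial cells, had 223, 453 and 373 RPM in libraries 1, 3 and 4 (CV 33.5%), and Mir200b and Mir429 followed with CVs of 35.9% and 29.1%. These 3 epithelial genes were all highest in library 3, as was the sum of the bile duct list, whereas Mir141 of that list had 204, 183 and 188 RPM. Mir34a, a target of p53 that rises with age and cell stress, had 1699 RPM in library 1, 2619 in library 3 and 1740 in library 4 (CV 25.7%). It was the only gene above 1000 RPM with a CV over 20%. Mir190b completed the 6 with a CV of 22.0%, at 231, 169 and 266 RPM.

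The features with the lowest CV sat at many levels. Mir125b1 had 15997, 16182 and 16152 RPM in libraries 1, 3 and 4, a CV of 0.618%, and Mir30b had 9032, 9094 and 9204 RPM, a CV of 0.959%. Snora58 (0.260%), Mir3545 (0.929%), Mir145 (1.01%) and Mir24-2 (1.02%) completed the 6 lowest, 4 of which varied less than counting alone would give. A CV from 3 values, picked as the lowest of 116, can fall under the counting value by luck. It does not show that a feature is held steadier than others. Mir143 and Mir145, neighbours on chromosome 18, had CVs of 6.605% and 1.01%. Library 3 lay farthest from the other two in 51 of the 116 features, in 40 of them on the high side, against 35 for library 1 and 30 for library 4. RPM of a library sum to a fixed total, so these features do not move separately. Over 163 features of at least 10 RPM, the median log2 difference was -0.073 for library 1 minus library 3. It was 0.050 for library 3 minus library 4.

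**Figure D5:**
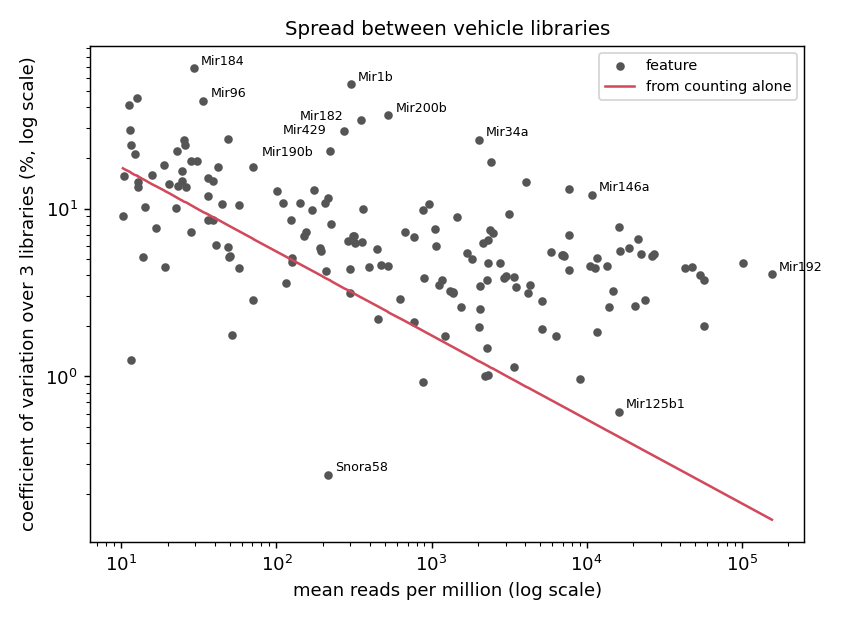
CV over the 3 Control libraries (%) against mean RPM, both on log scales, for the 163 features averaging at least 10 RPM, with the line that counting error alone would give. Most features lie above the line, Mir1b, Mir200b, Mir182 and Mir34a far above it, while Snora58 lies under it and Mir125b1 just above it.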

How the data were processed

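Small RNA libraries were made with a QIAseq miRNA kit from 10 to 20 mg of liver kept in RNAlater, per the labels' protocols. Whether the molecular indices of the kit were collapsed, and the alignment and counting settings, are not given in the sources used here. The submitters' processing notes name cutadapt 3.7, STAR 2.7.11b, featureCounts of Subread 2.0.6 and the build rn7. The table holds FPKM values as deposited, computed by the authors. RPM was computed as FPKM times feature length divided by 1000. The read total of a library was taken as the number at which all values become multiples of 0.01 read, and 52.8 to 58.3% of features above 0 had whole reads (within 0.001 read). Fractional reads are split among features.

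Features were ranked by mean RPM over the 3 Control libraries. The values have no test, since no groups were compared. The 9 columns of other groups were not used, and miR-122 is not analysed here. Named features were the 20 most abundant, the members of the 6 largest families and clusters, the 6 most and least variable features of at least 100 RPM, the cell type lists, other kinds of feature of at least 100 RPM, and pairs with large ratios. Others, such as those in the strand and host gene accounts, were chosen after their values were seen. Members and lists were chosen with earlier results of these data known. Sequences and hosts came from RefSeq tables (GRCr8), matched by symbol (381 of 432 microRNA genes). Python 3.11.15, numpy 2.4.6 and pandas 2.3.3 were used, and the recovery of read totals was tested on simulated data.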

Additional observations from a re-analysis of the deposited data

How the results depend on the processing

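Of 111 values of 17 results under 16 alternatives, 99 stayed within 1 SD of the libraries (counts: within 1.5 times) and 12 did not. Leaving out 1 of 3 libraries gave 51 of these values. It cannot move the mean share of a given gene or family by 1 SD, so those shares were bound to stay. Summing copies left shares such as that of Mir192 unchanged. The count of 99 is therefore no measure of robustness. On the deposited FPKM scale, Mir192 held 13.3% and clusters 48.6%, while Mirlet7f2 rose to 6.49%, Mir26b to 6.29% and the miR-26 family to 8.64%; 19 of the 20 leading features were shared. With the 9 pairs of copies of a mature sequence summed, the 10 leading features held 61.7%. Clusters held 44.7% with a largest gap of 2 kb and 52.7% with 50 kb. The median SD of log2(RPM + 1) was 0.083 over features of at least 10 RPM, 0.160 without a filter and 0.0705 from 100 RPM. Leaving out 1 library in turn gave 0.0697 to 0.0856 for that SD, 15.3 to 15.9% for Mir192, 58.9 to 60.0% for the 10 leading features, 36 to 37 features for 90% of reads, 242 to 247 features above 0 in the libraries left, 16.2 to 16.9% for let-7 and 49.7 to 50.2% for clusters. No paired analysis was possible because 1 group was described without a test. The main limits are 3 libraries, reads split among copies, and genes not analysed here; counting error matters up to about 100 RPM, with a median CV of 13.9% against 10.97% from counting at 10 to 100 RPM and 34.5% against 33.3% at 1 to 10 RPM.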

Other observations

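Reads split among identical copies show at the lowest levels. The 3 Mir124 genes each had 0.33 read in library 1, which is 1 read shared among the 3, and 0 in the other libraries. Mir138-1 and Mir138-2, which also share a main arm, had 5.61 and 2.18 RPM in library 1, 12.3 and 4.68 in library 3, and 6.77 and 2.58 in library 4, a ratio of 2.61 ± 0.0309 (SD, n = 3).

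Levels of Mir184, Mir96, Mir127 and Mir379, between 10 and 100 RPM on average, differed more than 2-fold between at least 1 pair of libraries. Mir184 had 6.24 RPM in library 1 against 40.1 in library 3 and 41.6 in library 4. Mir96, a neighbour of Mir182 on chromosome 4, had 18.7, 48.3 and 34.2 RPM in libraries 1, 3 and 4, the same order as Mir182. Mir127 and Mir379, both from the imprinted region of chromosome 6, were highest in library 4, at 15.8 and 19.3 RPM.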
